A study of Mus musculus with 14 samples.

Results

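A set of 10 genes of the transforming growth factor beta (TGF-β) pathway were followed across 4 groups of mouse colon epithelium RNA-seq libraries. They comprised the ligand genes Tgfb1, Tgfb2 and Tgfb3, the receptor genes Tgfbr1, Tgfbr2 and Tgfbr3, the transcriptional corepressor genes Skil and Ski, and the ubiquitin ligase genes Smurf1 and Smurf2. The 10 members were taken by name from the pathway with no rule on their measured values, although earlier results of these data were known at the time, and all 10 were found by symbol among 37680 genes in the count table. The groups were wild-type mice on water (WT water, 4 libraries), mice with Smad4 deleted on water (Smad4 KO water, 4 libraries), and both genotypes given 2.5% dextran sodium sulfate (DSS), an agent that injures the colon lining, for 3 days (WT DSS and Smad4 KO DSS, 3 libraries each). Adult mice on a background enriched for C57/BL6 were used. Floxed Smad4 was removed by a Cre recombinase that is driven by the Villin promoter and switched on by tamoxifen, so the deletion is aimed at intestinal epithelial cells and leaves the gene intact in stroma and immune cells. The epithelium was released from the colon with EDTA, and its RNA was sequenced in bulk. In such bulk libraries, fewer cells of a type and less RNA per cell cannot be told apart.

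TGF-β ligands are secreted in a latent form, and once freed they assemble a complex of the type II receptor Tgfbr2, which binds ligand, and the type I receptor Tgfbr1, which phosphorylates the receptor SMADs Smad2 and Smad3. These join Smad4 and enter the nucleus to regulate genes. The pathway restrains itself at several levels, through Ski and SnoN (the product of Skil) that repress SMAD target genes, and through Smurf1 and Smurf2 that mark receptors and SMADs for degradation. In the intestine this signal is known for restraining epithelial growth and inflammation.

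The targeted gene was checked first. Smad4 stood at 133 ± 18.6 CPM (counts per 1000000 counts of a library, scaled for library composition; mean ± SD, n = 4) in WT water, at 176 ± 6.14 (n = 3) in WT DSS and at 42.3 ± 1.79 (n = 3) in Smad4 KO DSS. In Smad4 KO water 3 libraries lay at 35.1, 37.0 and 46.8 CPM, but the library labelled Smad4 KO water replicate 1 lay at 158 CPM, within the WT range. That library goes against its label, so the members' fits that use Smad4 KO water are given with and without it. The paper's RNA-seq figure legends count 3 replicates of water-treated Smad4 KO, against 4 libraries here, and do not name them. Total counts ran from 12882827 to 26087231 per library. Mitochondrial genes took 4.05% to 8.23% of the counts in 11 libraries and 21.4%, 30.6% and 32.8% in the other 3, which are Smad4 KO water replicate 4 and WT water replicates 3 and 4. Epithelial markers were high in every library (10 of 10 passed the filter, summed at 15794 to 25080 CPM). Library names carry 5 different prefixes whose meaning the labels do not state, and all Smad4 KO DSS libraries have the prefix D whereas no Smad4 KO water library does.

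Of the 10 members 7 were well measured. Compared per kilobase of exon, Ski had the highest median over 14 libraries, at 10.9 CPM per kb (range 7.86 to 11.4), and stood above 67.3% of the 15106 tested genes with a known length. Smurf2 followed at 8.28 CPM per kb (5.15 to 10.4), then Skil at 6.66 (2.54 to 10.4), Tgfbr2 at 6.54 (3.45 to 9.76), Smurf1 at 5.51 (3.92 to 6.42), Tgfb1 at 4.52 (2.07 to 6.02) and Tgfbr1 at 4.23 (3.24 to 5.79). The ranges of neighbours in this order overlapped throughout these 7 genes. The remaining 3 members, Tgfb3, Tgfbr3 and Tgfb2, were far below, with medians of 0.0563, 0.0364 and 0.0160 CPM per kb, and their ranges did not reach those of the other 7. Tgfb1 was therefore the main ligand transcript of this tissue fraction, Tgfbr1 had a lower median per length than its partner Tgfbr2, and the coreceptor gene Tgfbr3 was near the limit of detection. Ski varied least from library to library, with a coefficient of variation of 10.9%, and Skil varied most of the 7, with 30.1%.

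**Figure D1:**
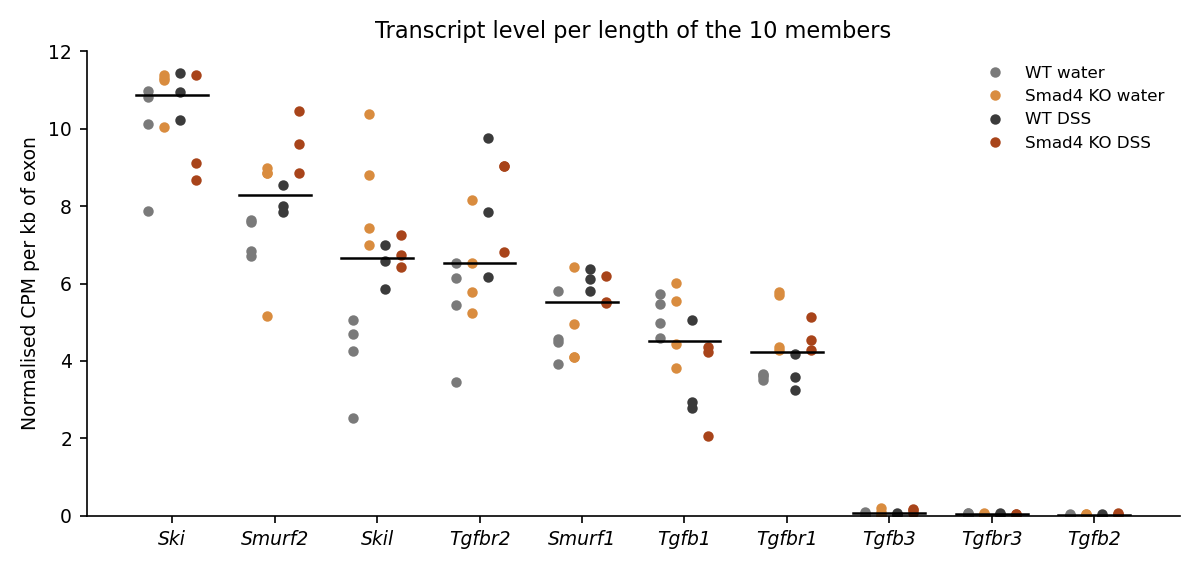
Transcript level of each member, in normalised CPM per kb of exon, in all 14 libraries. Each point is a library coloured by group and each black line is the median over libraries. Ski is highest with a median of 10.9, and Tgfb3, Tgfbr3 and Tgfb2 lie at the bottom of the axis with medians of 0.0563, 0.0364 and 0.0160.

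Sequence upstream of the members was read from RefSeq promoters on GRCm38.p6 (250 bases before and 50 after a transcription start), which hold 7 of the 10 members and 8 starts. Tgfb3, Tgfbr3 and Skil have no entry there. SMAD complexes are known to bind the short SMAD box, CAGAC on one strand and GTCTG on the other, and a GC-rich element, GGCGCC. The promoters of Tgfbr1 and Smurf2 are shown because these genes separated the genotypes after DSS, with every match on either strand in capitals. The first start of Tgfbr1 lies at chr4:47352972-47353271 on the plus strand, its second at chr4:47385966-47386265 on the plus strand, and that of Smurf2 at chr11:106920666-106920965 on the minus strand.
Tgfbr1 first start: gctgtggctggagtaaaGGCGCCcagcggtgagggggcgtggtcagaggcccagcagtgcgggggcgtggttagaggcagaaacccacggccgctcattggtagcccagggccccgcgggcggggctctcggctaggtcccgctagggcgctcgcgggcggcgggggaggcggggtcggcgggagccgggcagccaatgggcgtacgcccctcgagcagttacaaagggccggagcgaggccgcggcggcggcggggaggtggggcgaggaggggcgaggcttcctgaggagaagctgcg
Tgfbr1 second start: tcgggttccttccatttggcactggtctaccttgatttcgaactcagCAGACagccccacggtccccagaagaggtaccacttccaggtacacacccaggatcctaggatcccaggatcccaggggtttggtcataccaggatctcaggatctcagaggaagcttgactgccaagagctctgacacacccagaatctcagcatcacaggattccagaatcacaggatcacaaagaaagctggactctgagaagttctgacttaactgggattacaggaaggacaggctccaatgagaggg
Smurf2: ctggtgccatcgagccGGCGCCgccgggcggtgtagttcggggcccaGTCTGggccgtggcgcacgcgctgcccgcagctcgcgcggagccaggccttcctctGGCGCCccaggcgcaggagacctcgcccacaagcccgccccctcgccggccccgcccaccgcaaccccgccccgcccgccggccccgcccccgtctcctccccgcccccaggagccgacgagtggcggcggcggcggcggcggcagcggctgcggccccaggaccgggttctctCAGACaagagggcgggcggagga
The first start of Tgfbr1 held 1 GGCGCC and no SMAD box, the second held 1 SMAD box, and Smurf2 held 2 of each. Of the others, Tgfb2 and Smurf1 held 2 SMAD boxes each, Tgfbr2 held 1, Ski held 1 GGCGCC, and Tgfb1 held neither. A SMAD box was present in 49.6% and GGCGCC in 11.9% of 32841 RefSeq promoters of this length. The SMAD palindrome GTCTAGAC, which contains neither of the other motifs, was present in 0.213% of them and in no member promoter. The starts that held GGCGCC were rich in G and C, at 74.7% (Tgfbr1 first start), 80.3% (Smurf2) and 85.3% (Ski). The median over all these promoters was 52.7%. Whether members hold GGCGCC more often than promoters of like G and C content was not tested.

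In 5 comparisons none of the 8 members that passed the filter on low counts reached an adjusted p of 0.05 in edgeR's quasi-likelihood test. On water, Smad4 KO against WT called 0 of 8 members against 0.00661% of all 15127 genes, and after DSS the same contrast called 0 of 8 against 0.747%. DSS against water called 0 of 8 members in WT, where 0% of all genes were called, and 0 of 8 in Smad4 KO, where 0.00661% were. The difference of the DSS response between genotypes called 0 of 8 against 0.00661%. At an unadjusted p under 0.05 the members numbered 2 of 8 on water (20.4% of all genes), 2 of 8 after DSS (15.4%), 4 of 8 for DSS in WT (24.2%), 0 of 8 for DSS in Smad4 KO (6.37%) and 1 of 8 for the difference of responses (7.5%). Comparisons that involve the same group share its libraries.

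The call on water depended on the model. With all 14 libraries in 1 edgeR model, which pools the spread over the groups, Skil (log2 fold change 1.02, adjusted p = 0.0214) and Tgfbr1 (0.48, adjusted p = 0.0455) were called higher in Smad4 KO water, 2 of 8 members against 8.44% of all genes. DESeq2 called Skil alone (adjusted p = 0.00416), 1 of 8 against 5.08%. For DSS in WT, DESeq2 again called Skil alone (adjusted p = 0.0419), against 11.7% of all genes. DESeq2 called no member after DSS between genotypes (3.3% of all genes called), for DSS in Smad4 KO (0.469%) or for the difference of responses (0.0529%).

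**Figure D2:**
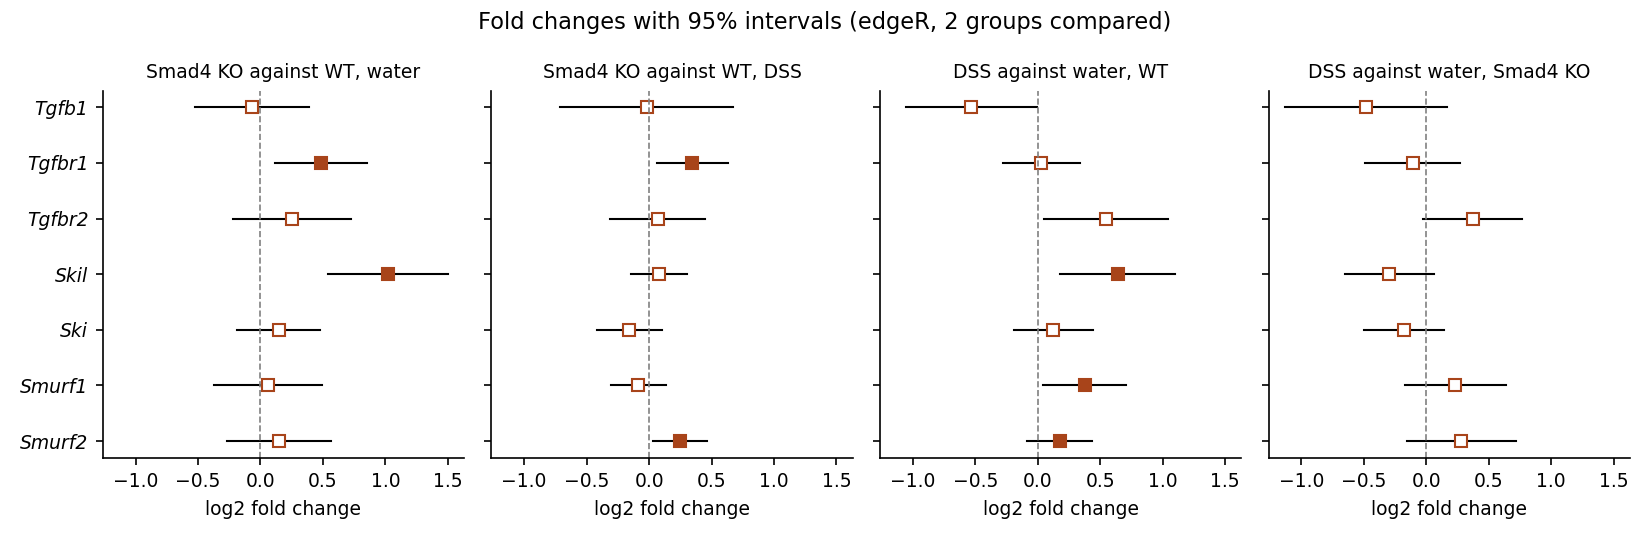
Log2 fold change of 7 members in 4 comparisons, as squares, with 95% intervals as lines, from edgeR fits of the 2 groups compared. Filled squares mark groups that do not overlap. The interval of Skil on water, 0.539 to 1.497, lies farthest from 0, and its interval after DSS runs from -0.15 to 0.30.

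Tgfb1 (ENSMUSG00000002603, mm9 chr7:26472021-26490096, plus strand) encodes the ligand that dominates in most adult tissues. Its CPM was 14.7, 12.8, 14.01 and 11.8 in WT water and 14.2, 11.4, 9.75 and 15.4 in Smad4 KO water, where the first value is from the library labelled replicate 1. After DSS it was 7.12, 7.54 and 12.97 in WT and 5.28, 11.1 and 10.8 in Smad4 KO. The genotypes overlapped under both treatments, with log2 fold changes of -0.07 (SE 0.21, adjusted p = 0.873) on water and -0.02 (SE 0.31, adjusted p = 0.985) after DSS. Values after DSS lay lower in both genotypes but overlapped with water, at -0.53 (SE 0.24, adjusted p = 0.202) in WT and -0.48 (SE 0.29, adjusted p = 0.817) in Smad4 KO. WT DSS replicate 3, the single library with the prefix ZH, stood at the level of the water libraries. With prefix D alone the WT difference was -0.90, from 2 libraries a side. With the library labelled replicate 1 of Smad4 KO water left out, the genotype difference on water was -0.12 (SE 0.24, adjusted p = 0.816) and the DSS response in Smad4 KO was -0.42 (SE 0.32, adjusted p = 0.85).

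Tgfb2 (ENSMUSG00000039239, mm9 chr1:188447065-188529871, minus strand) and Tgfb3 (ENSMUSG00000021253, mm9 chr12:87397694-87419991, minus strand), the other 2 ligand genes, were barely detected. Raw counts of Tgfb2 were 1, 4, 0 and 0 in WT water, 6, 0, 5 and 1 in Smad4 KO water, 0, 0 and 4 in WT DSS and 3, 7 and 2 in Smad4 KO DSS. For Tgfb3 they were 8, 0, 0 and 1 in WT water, 2, 0, 8 and 12 in Smad4 KO water, 4, 1 and 5 in WT DSS and 11, 4 and 9 in Smad4 KO DSS. Neither gene passed the filter of 10 counts in 3 libraries, so neither was tested, and every pair of groups overlapped. A count of 0 allows up to 3 counts, which is 0.111 to 0.321 CPM in these libraries. Pooled over libraries, Tgfb3 came to 0.406 CPM in Smad4 KO DSS (exact Poisson 95% interval 0.260 to 0.604, counting error only) and 0.148 CPM (0.0712 to 0.273) in WT DSS. The intervals overlap slightly, which is not a test of their difference, and that difference was not tested.

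Genes listed as fibroblast markers moved with the genotype. Their summed level was 20.5 to 25.9 CPM in WT water, 33.1 to 67.9 in Smad4 KO water, 23.5 to 26.2 in WT DSS and 36.7 to 46.4 in Smad4 KO DSS, so neither pair of genotypes overlapped. Of the 10 markers 8 passed the filter and all 8 had higher fitted levels in Smad4 KO under both treatments. After DSS 3 of the 8, the collagen genes Col1a1, Col1a2 and Col3a1, passed the test (0.747% of all genes did), and 0 of 8 did with all 14 libraries in 1 model (0.0132% of all genes). On water 0 of 8 passed, with or without the library labelled replicate 1, whereas the model of all 14 libraries called 4 (Col1a2, Dcn, Col6a1 and Col6a2), against 8.44% of all genes. Counts differed widely within the list. Lum never exceeded 1 count and Pdgfra never exceeded 10, whereas Dcn, Pdgfrb and Col3a1 reached 216, 215 and 98. The highest medians in the list were those of Fbln1 and Pdgfrb, 16.9 and 7.66 CPM. Smooth muscle and endothelial markers had negative median log2 differences on water (-0.22 and -0.42, 3 tested in each list). After DSS the smooth muscle median was positive (0.16) and the endothelial median negative (-0.43). The cells that these transcripts came from were not determined. Markers shared by leukocytes overlapped between genotypes (36.6 to 57.5 CPM in WT water, 39.0 to 57.6 in Smad4 KO water, 40.8 to 64.8 in WT DSS and 49.3 to 62.1 in Smad4 KO DSS). Summed T cell and myeloid markers overlapped as well under both treatments. The myeloid sum was mostly Cd14, with a median of 137 CPM, against 4.82 CPM for Itgam, the next highest in that list. Summed B and plasma cell markers overlapped on water but not after DSS (1.56 to 2.15 CPM in WT, 2.95 to 4.67 in Smad4 KO), and none of the 4 tested was called. The part of the fibroblast signal in any member's level was not tested.

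**Figure D3:**
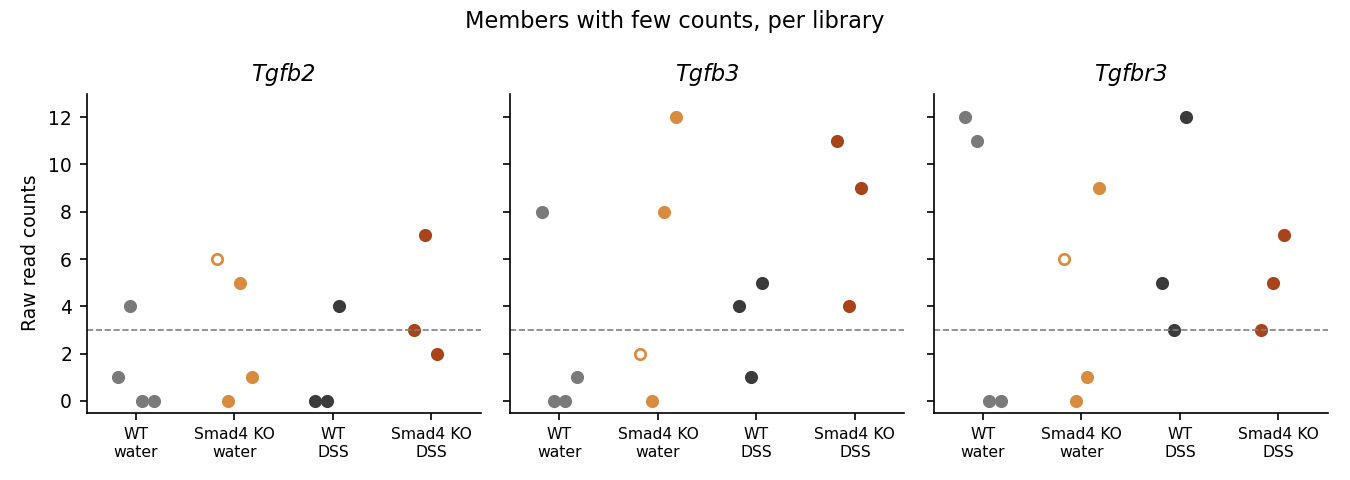
Raw read counts of Tgfb2, Tgfb3 and Tgfbr3 in each library by group. The dashed line is the 3 counts that a count of 0 allows, and the open point is the library labelled Smad4 KO water replicate 1. No library exceeds 12 counts for any of these genes, and the groups overlap.

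Tgfbr1 (ENSMUSG00000007613, mm9 chr4:47366094-47427803, plus strand), the type I receptor kinase, was the receptor whose level separated the genotypes under both treatments. It stood at 22.9, 23.7, 23.9 and 23.4 CPM in WT water and at 28.6, 37.3, 37.8 and 27.9 CPM in Smad4 KO water. Every Smad4 KO water library, including the one labelled replicate 1 with WT levels of Smad4, lay above every WT water library. After DSS the values were 27.3, 21.2 and 23.4 CPM in WT and 33.5, 29.6 and 28.01 CPM in Smad4 KO, again without overlap, although the closest libraries of the 2 groups were less than 1 CPM apart. The log2 difference was 0.48 on water (SE 0.17, 95% interval 0.12 to 0.85, adjusted p = 0.174) and 0.35 after DSS (SE 0.13, 0.06 to 0.63, adjusted p = 0.252). Neither passed the test. Leaving out the library labelled Smad4 KO water replicate 1 gave 0.55 (SE 0.19, adjusted p = 0.204) on water. Within the name prefixes the log2 difference was 0.46 in Z (2 libraries against 1) and 0.25 in MP (1 against 1) on water. After DSS it was 0.32 in D (3 against 2), and all of these were too few to test. The 2 Smad4 KO libraries in Z were the one labelled replicate 1, at 28.6 CPM, and replicate 2, at 37.3 CPM, against 23.9 CPM in WT. The DSS response of Tgfbr1 was 0.03 (SE 0.14, 95% interval -0.28 to 0.34, adjusted p = 0.92) in WT and -0.11 (SE 0.17, -0.49 to 0.27, adjusted p = 0.94) in Smad4 KO, or -0.17 (SE 0.18, adjusted p = 0.903) there without the library labelled replicate 1.

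Among members, 2 of 8 lay above WT without overlap on water (Tgfbr1 and Skil), where 5.18% of all genes did, and 2 of 8 after DSS (Tgfbr1 and Smurf2), where 10.4% of all genes did. None lay below WT without overlap on water (5.2% of all genes) or after DSS (11.4%).

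Tgfbr2 (ENSMUSG00000032440, mm9 chr9:115993415-116084383, minus strand), the receptor that binds ligand first, varied between libraries more than between genotypes. Its CPM was 49.6, 52.9, 44.1 and 27.9 in WT water, 52.9, 42.3, 66.0 and 46.8 in Smad4 KO water, 78.9, 49.9 and 63.5 in WT DSS, and 55.0, 73.0 and 73.1 in Smad4 KO DSS. WT water replicate 4 was the lowest of all 14. The genotypes differed by 0.25 (SE 0.22, adjusted p = 0.537) on water and by 0.07 (SE 0.17, 95% interval -0.31 to 0.45, adjusted p = 0.882) after DSS on the log2 scale. DSS libraries lay higher on average in both genotypes, by 0.55 in WT (SE 0.22, 95% interval 0.05 to 1.05, adjusted p = 0.174) and by 0.37 in Smad4 KO (SE 0.18, -0.03 to 0.77, adjusted p = 0.76), with overlapping libraries and no call. With replicate 1 of Smad4 KO water left out, the genotype difference on water was 0.25 (SE 0.25, adjusted p = 0.62) and the DSS response in Smad4 KO was 0.38 (SE 0.21, adjusted p = 0.787). Within a library the level per length of Tgfbr1 was 0.429 to 0.526 of that of Tgfbr2 in WT DSS and 0.475 to 0.754 in Smad4 KO DSS. On water this ratio ran from 0.556 to 1.04 in WT and from 0.668 to 1.09 in Smad4 KO, 0.710 to 1.09 without the library labelled replicate 1.

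Tgfbr3 (ENSMUSG00000029287, mm9 chr5:107535589-107718648, minus strand), the coreceptor betaglycan that presents ligand to the signalling receptors, had 74 counts over all 14 libraries. They were 12, 11, 0 and 0 in WT water, 6, 0, 1 and 9 in Smad4 KO water, 5, 3 and 12 in WT DSS and 3, 5 and 7 in Smad4 KO DSS. All groups overlapped. The gene passed the filter with exactly 3 libraries at 10 counts or more, all of them WT, so it was tested only through that genotype. Its 95% intervals for the genotype difference spanned -3.02 to 2.22 on the log2 scale on water, and -3.69 to 2.55 there without the library labelled replicate 1. After DSS they spanned -1.64 to 1.23. Changes of several-fold in either direction were therefore not detectable at this depth.

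Skil (ENSMUSG00000027660, mm9 chr3:30993980-31021499, plus strand) encodes SnoN, a SMAD corepressor and itself a known immediate target of TGF-β signalling. Its CPM was 49.0, 45.6, 41.4 and 24.6 in WT water and 72.0, 85.5, 100.8 and 67.7 in Smad4 KO water. The lowest Smad4 KO water library lay well above the highest WT water library, and the library labelled replicate 1, with its WT level of Smad4, lay with the other Smad4 KO water libraries. The means were 40.1 ± 10.8 and 81.5 ± 14.9 CPM (SD, n = 4 each), and 84.7 ± 16.5 CPM (n = 3) in Smad4 KO water without replicate 1. This 2.03-fold difference (log2 1.02, SE 0.22, 95% interval 0.539 to 1.497) had an adjusted p of 0.153 in the edgeR fit of these 8 libraries, and without replicate 1 it was 1.08 (SE 0.24, adjusted p = 0.133). Of the 2 prefixes that hold both genotypes on water, Z had 2 Smad4 KO libraries (72.0 CPM in the library labelled replicate 1 and 85.5 in replicate 2) against 1 WT library at 41.4 CPM, and MP had 1 against 1, at 67.7 and 24.6 CPM, both above 20% mitochondrial counts. These are too few libraries for a test within a prefix.

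The Skil call on water turned with single libraries and settings. Without Smad4 KO water replicate 4 the adjusted p was 0.0266, with 11.5% of all genes called in that fit, and without WT water replicate 4 the log2 difference was 0.85 with an adjusted p of 0.363. With the prefix as a block it was 1.15 (adjusted p = 0.0339), with 1.96% of all genes called. Without the 3 water libraries above 20% mitochondrial counts it was 0.87 (adjusted p = 0.0824). With all groups in 1 model and the library labelled Smad4 KO water replicate 1 left out it was 1.07 (adjusted p = 0.012), with 7.61% of all genes called.

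After DSS Skil did not separate the genotypes. Its CPM was 67.8, 56.8 and 63.7 in WT DSS and 70.4, 65.4 and 62.4 in Smad4 KO DSS, all between the WT water and the highest Smad4 KO water values. The log2 difference was 0.08 (SE 0.10, 95% interval -0.15 to 0.30, adjusted p = 0.751). In WT all 3 DSS libraries lay above all 4 water libraries (log2 0.64, SE 0.21, adjusted p = 0.119), and within prefix D this difference was 0.40, from 62.3 against 47.3 CPM. In Smad4 KO the groups overlapped (-0.30, SE 0.16, adjusted p = 0.78, or -0.35, SE 0.17, adjusted p = 0.784 without the library labelled replicate 1), where prefix and treatment cannot be told apart. The DSS response of Skil differed between genotypes by -0.94 (SE 0.28), with an adjusted p of 0.643 in edgeR, and by -0.998 (SE 0.29, adjusted p = 0.576) without that library, so the difference of responses did not pass the test.

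Ski (ENSMUSG00000029050, mm9 chr4:154528184-154596701, minus strand), the other corepressor of this pair and the founding member of its family, was the steadiest member. Its CPM was 61.0, 60.1, 56.3 and 43.7 in WT water, 62.7, 55.9, 62.9 and 63.3 in Smad4 KO water, 60.9, 56.8 and 63.7 in WT DSS, and 48.2, 63.3 and 50.7 in Smad4 KO DSS. All groups overlapped. The genotypes differed by 0.14 (SE 0.15, 95% interval -0.19 to 0.48, adjusted p = 0.625) on water and by -0.16 (SE 0.12, -0.42 to 0.10, adjusted p = 0.558) after DSS on the log2 scale. Without the library labelled replicate 1 the first was 0.14 (SE 0.18, adjusted p = 0.716). A ratio within a library does not depend on how libraries are scaled to each other. Per length, Skil was 0.323 to 0.460 of Ski in WT water and 0.614 to 0.919 in Smad4 KO water, with and without the library labelled replicate 1. In WT DSS it was 0.574 to 0.639 and in Smad4 KO DSS 0.593 to 0.838, which overlapped. The ratio was chosen after the values were seen and is given as a description.

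**Figure D4:**
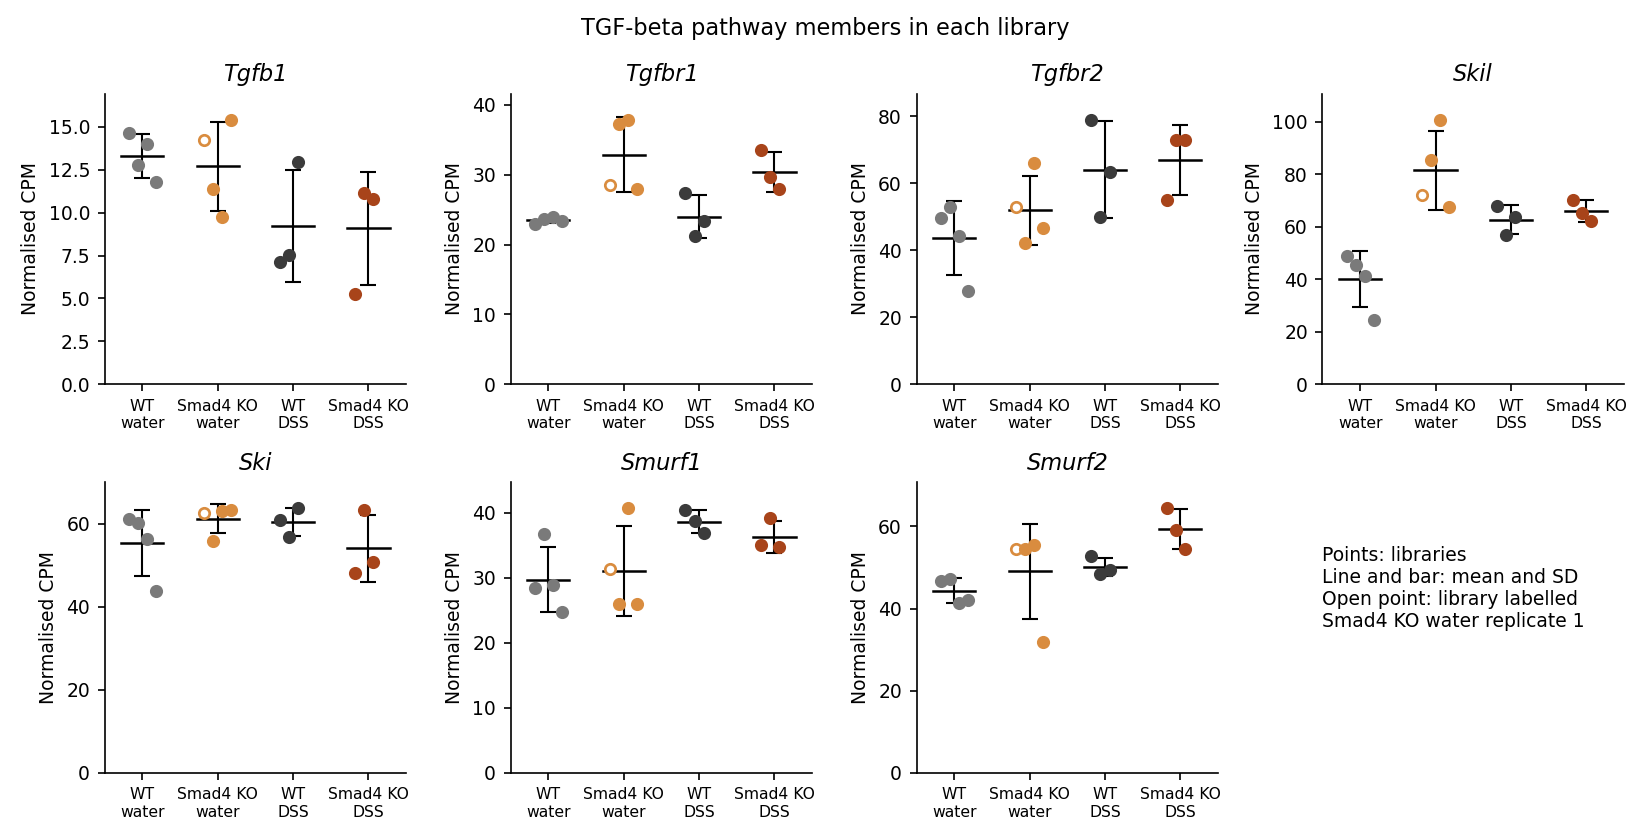
Normalised CPM of the 7 well-measured members in each library, by group, with the mean as a line and the SD as a bar; the open point is the library labelled Smad4 KO water replicate 1. Skil in Smad4 KO water (67.7 to 100.8 CPM) lies above all WT water libraries (24.6 to 49.0 CPM), and Tgfbr1 lies above WT in both Smad4 KO groups.

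Smurf2 (ENSMUSG00000018363, mm9 chr11:106681380-106782029, minus strand), a ubiquitin ligase that acts on TGF-β receptors and SMADs, separated the genotypes after DSS. It stood at 52.7, 48.3 and 49.3 CPM in WT DSS and at 64.4, 59.1 and 54.6 CPM in Smad4 KO DSS. All Smad4 KO DSS libraries lay above all WT DSS libraries, by 0.25 on the log2 scale (SE 0.10, 95% interval 0.03 to 0.46, adjusted p = 0.275), which did not pass the test. Within prefix D the difference was 0.23. On water the values were 46.7, 47.1, 41.3 and 42.1 CPM in WT and 54.5, 54.6, 55.4 and 31.8 CPM in Smad4 KO. Smad4 KO water replicate 4, a library with 21.4% mitochondrial counts, lay below every WT water library and the other 3 lay above them. The log2 difference was 0.15 (SE 0.19, adjusted p = 0.699), 0.31 (adjusted p = 0.173) without that library and 0.10 (SE 0.22, adjusted p = 0.846) without the library labelled replicate 1. WT DSS libraries all lay above WT water libraries, by 0.18 (SE 0.12, adjusted p = 0.374).

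Smurf1 (ENSMUSG00000038780, mm9 chr5:145637364-145726716, minus strand), the related ligase known for its action on bone morphogenetic protein SMADs as well as on TGF-β receptors, did not separate the genotypes. Its CPM was 28.4, 36.8, 28.9 and 24.8 in WT water, 31.4, 26.0, 40.7 and 26.0 in Smad4 KO water, 40.4, 38.7 and 36.8 in WT DSS and 35.04, 39.2 and 34.8 in Smad4 KO DSS. The genotype differences were 0.06 (SE 0.20, adjusted p = 0.883) on water, the same to 2 decimals (SE 0.23, adjusted p = 0.913) without the library labelled replicate 1, and -0.09 (SE 0.10, 95% interval -0.30 to 0.13, adjusted p = 0.711) after DSS. All 3 WT DSS libraries lay above the WT water libraries, by a narrow margin over WT water replicate 2 (log2 0.38, SE 0.15, adjusted p = 0.167). For DSS in WT, 3 of 8 members (Skil, Smurf1 and Smurf2) lay above water without overlap, against 12.8% of all genes, and for DSS in Smad4 KO 0 of 8 did in either direction, against 8.88%. Per length, Smurf2 was 1.28 to 1.38 times Smurf1 within WT DSS libraries and 1.55 to 1.89 times within Smad4 KO DSS libraries, which did not overlap, and 1.32 to 1.75 and 1.25 to 2.16 times within WT and Smad4 KO water libraries, which did, with and without the library labelled replicate 1. This ratio too was chosen after the values were seen.

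Over the 8 tested members the median log2 difference was 0.15 on water (6 higher, 2 lower; 0.12 without the library labelled replicate 1), against -0.01 over all genes, and 0.02 after DSS (4 higher, 4 lower), against 0.00283. For DSS it was 0.15 in WT (7 higher, 1 lower) and 0.06 in Smad4 KO (4 higher, 4 lower; 0.04 without that library), against -0.01 and -0.02 over all genes. Tgfbr3, counted as lower in both genotype comparisons, passed the filter through WT libraries alone.

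Other genes of the pathway were examined from lists of known components. After DSS, Cdkn1a, which encodes the cell cycle inhibitor p21, was the only one of 10 tested TGF-β target genes to pass the test (log2 -1.31 in Smad4 KO, SE 0.11, adjusted p = 0.0022), where 0.747% of all genes passed. Of the 10, 6 had a lower fitted level, and Tgfbi, which encodes a secreted matrix protein, was at -1.30 (SE 0.28, adjusted p = 0.084). The Cdkn1a call was lost with all 14 libraries in 1 model (adjusted p = 0.247). Its level was 154 ± 18.3 CPM in WT DSS and 61.6 ± 5.38 CPM in Smad4 KO DSS (SD, n = 3 each). The inhibitory SMAD gene Smad7, like Skil a feedback gene induced by the pathway, had a log2 value of -0.59 (SE 0.13, adjusted p = 0.0957) after DSS and -0.53 (SE 0.25, adjusted p = 0.255) on water, with no call. With replicate 1 of Smad4 KO water left out, it was -0.73 (SE 0.25, adjusted p = 0.205) on water. With all groups in 1 edgeR model and that library left out, Smad7 (-0.74, adjusted p = 0.0474) and Cdkn1a (-1.05, adjusted p = 0.0226) were called lower on water. In that fit 7.61% of all genes were called. Smad2 and Smad3, the partners of Smad4, were at 0.21 (adjusted p = 0.411) and 0.06 (adjusted p = 0.836) after DSS. Of the genes for latency and activation of the ligands (latent binding proteins, integrins, proteases), 0 of 10 passed the test in either genotype comparison, with medians of 0.03 after DSS and 0.56 on water (0.42 without the library labelled replicate 1). None of 16 other regulators (medians 0.02 and 0.09), of 7 activin branch genes (0.19 and 0.56) or of 7 partners of Ski and SnoN (0.11 and 0.16) passed it in either comparison. Without that library the water medians were 0.12, 0.64 and 0.22, with no call. With all 14 libraries in 1 model, Wwp1, a ubiquitin ligase related to the Smurfs, and Zfyve16, an endosomal SMAD anchor, were called higher in Smad4 KO water (log2 0.76, adjusted p = 0.0214, and 0.77, adjusted p = 0.0307), 2 of 16 regulators where 8.44% of all genes were called. With replicate 1 left out of that model, the integrin genes Itgav and Itgb8 were also called higher on water. Itgav (log2 0.73) was at the threshold, with an adjusted p that rounds to 0.05, and Itgb8 (4.07) had an adjusted p of 0.0313. These were 2 of the 10 latency and activation genes, where 7.61% of all genes were called. Itgb8 had 35 counts or fewer in every library. Its raw counts were 4, 0, 0 and 0 in WT water and 1, 12, 35 and 13 in Smad4 KO water. Outside Smad4 KO water only WT DSS replicate 3, with 13, reached 10 counts. The gene therefore passed the filter through the group where it was high.

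Crypt base and cycling markers lay at 492 to 639 CPM summed in WT water and at 706, 766, 836 and 462 CPM in Smad4 KO water, the last being replicate 4, which was also the lowest of that group for Skil and Tgfbr1. In WT water it was the other way for Skil, since replicate 4 had the highest marker sum (639 CPM) and the lowest Skil (24.6 CPM). After DSS the markers lay at 419 to 596 CPM in WT and at 485 to 575 CPM in Smad4 KO. The highest medians in this list were those of the cycling genes Mki67 and Top2a, 178 and 151 CPM. The crypt base genes Smoc2 and Lgr5 stood at 67.6 and 12.0 CPM, so the summed level is weighted toward cycling genes. On water 0 of the 8 markers passed the edgeR test of the 2 groups. With all groups in 1 model and the library labelled replicate 1 left out, 2 were called higher and 2 lower. They were Lgr5 (log2 1.01) and Smoc2 (0.98), and Axin2 (-0.76) and Ascl2 (-2.02), where 7.61% of all genes were called. After DSS Smoc2, a crypt base gene, rose in Smad4 KO (log2 1.53, adjusted p = 0.00479 in edgeR), 1 of 8 markers. Of the 8, 4 had higher and 4 had lower fitted levels there (median -0.02). Of 8 surface colonocyte markers, Car4 (log2 -1.03, adjusted p = 0.0461), Aqp8 (adjusted p = 0.0434) and Krt20 (-0.85, adjusted p = 0.0317) fell in the same comparison, in which 0.747% of all genes passed. With all 14 libraries in 1 model the Smoc2 call after DSS held (adjusted p = 0.0107) and 0 of the 8 surface markers were called. The part of these markers in the levels of Skil and Tgfbr1 was not tested.

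**Figure D5:**
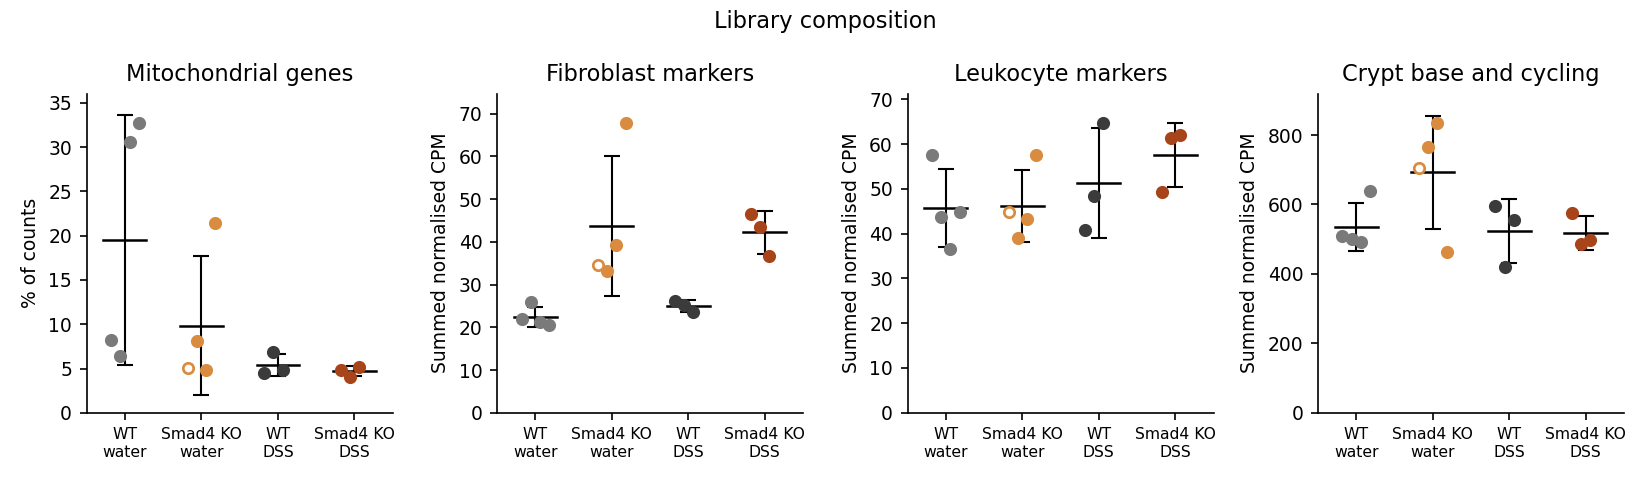
Share of counts from mitochondrial genes (percent) and summed normalised CPM of fibroblast, leukocyte, and crypt base and cycling markers in each library by group, with the mean as a line and the SD as a bar. The open point is the library labelled Smad4 KO water replicate 1. Fibroblast markers do not overlap between genotypes (20.5 to 25.9 against 33.1 to 67.9 CPM on water), and 3 water libraries exceed 20% mitochondrial counts.

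Profiles over the 14 libraries were compared as a description, since the libraries share genotype, treatment and name prefix. The genes most like Skil among 11565 compared were Zbtb41 (Pearson r = 0.963) and Atp6v1a (0.961), and those most like Tgfbr1 were Slc12a2 (0.937), the basolateral chloride importer, and Nudcd1 (0.932). Tgfbr2 was most like Fbxw8 (0.922), Smurf1 most like the calcium channel gene Itpr3 (0.936), Smurf2 most like Vps13b (0.936) and Ski most like Nhlrc1 (0.928). Tgfb1 had the weakest best match, Snx33 (0.842). Between members, r was 0.818 for Tgfbr2 with Smurf1, 0.729 for Tgfbr1 with Skil, 0.639 for Tgfbr2 with Skil and -0.597 for Tgfb1 with Smurf2.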

How the data were processed

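RNA-seq measured poly(A) RNA of colon epithelium in 14 libraries. Per the paper's methods and the labels, the authors aligned clean paired-end reads to mm9 with Hisat2 and counted them per gene with featureCounts. The paper calls the deposited counts normalized, but their values are whole numbers whose totals differ between libraries, and they were treated as raw counts. The strand setting is not given in the sources used here. No exon of a member overlaps another gene in GENCODE M1, from which symbols, coordinates and exon lengths (mm9) were taken. A filter kept the 15127 of 37680 genes that reached 10 counts in 3 or more of the 14 libraries, and these were tested with edgeR 4.0.16 (R 4.3.3) by the quasi-likelihood test on the 2 groups compared, with TMM scaling, Benjamini-Hochberg adjustment over all tested genes and a threshold of 0.05. The difference of responses was an interaction term in all 14 libraries. CPM used TMM-scaled library sizes. Intervals used t quantiles on the total degrees of freedom of each fit, edgeR's prior included. DESeq2 1.42.0 was an alternative.

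The 10 members and the gene lists were chosen with earlier results of these data known. Besides the members, the text names Smad4, genes of each list called in the comparison described (at most 4 a list by smallest adjusted p), and from the 2 genes with the highest Pearson r to each member (log2 of CPM + 1, genes averaging at least 50 counts). Smad2, Smad3, Smad7, Tgfbi, Fbln1, Pdgfrb, Cd14, Itgam, Mki67 and Top2a were named after their values were seen. Alternatives were other scalings, filters, models and blocks, and leaving out libraries. Nothing in the labels says whether libraries came from separate animals, so p-values measure the spread between these libraries, which may be technical. The fits were tested on simulated counts with known changes. Motifs were searched on both strands.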

Additional observations from a re-analysis of the deposited data

Results flagged for a closer look

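In each group of 4 libraries the gap of the most extreme value to its neighbour was compared with Dixon's 95% critical value for the 8 tested members, 16 groups of values in all, of which chance flags about 1 in 20. In Smad4 KO water, 2 values stood apart. Smurf2 was at 31.8 CPM in replicate 4 (gap over range 0.964), below the other 3 libraries at 54.5, 54.6 and 55.4 CPM. Ski was at 55.9 CPM in replicate 2 (gap over range 0.913), below the other 3 at 62.7, 62.9 and 63.3 CPM, although this value lies within the range of WT water.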

How the results depend on the processing

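Of the values of single members under all alternatives, 707 kept their direction and their side of the threshold, 10 passed the threshold where the reported value did not, 0 lost it and 46 changed sign. None of the members that changed sign passed the threshold in either fit. Depth limits Tgfb2, Tgfb3 and Tgfbr3, which never exceeded 12 counts in a library. Where counts of calls differ below, the cause was not tested.

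For Smad4 KO against WT on water (0 members and 1 gene called as reported), 1 model of all 14 libraries called 2 members and 1276 genes, and 2 and 1151 when Smad4 KO water replicate 1, which goes against its label, was left out. DESeq2 called 1 and 768, and 1 and 625 without that library. The prefix as a block gave 1 and 296, no filter on low counts gave 37 genes, and leaving out the 3 libraries above 20% mitochondrial counts gave 104. Leaving out 1 library in turn gave 0 to 1 members and 1 to 1740 genes, with 1740 without Smad4 KO water replicate 4 and 13 without replicate 1. For Smad4 KO against WT after DSS (113 genes), the counts were 2 with all 14 libraries, 8 with these but replicate 1, 499 with DESeq2, 342 with no filter, 42 with the prefix as a block and 42 with prefix D alone. Leaving out 1 library gave 27 to 96 genes, with 54, 42, 56, 27 and 31 without WT DSS replicates 2 and 3 and Smad4 KO DSS replicates 1, 2 and 3, and no member called.

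For DSS in WT (0 genes), DESeq2 called 1 member and 1777 genes, no filter 356 genes, the prefix as a block 2, prefix D alone 9 and the fit without the 3 mitochondria-rich libraries 1. Leaving out 1 library gave 0 to 418, with 418 without WT water replicate 2 and 25 without replicate 4. For DSS in Smad4 KO (1 gene), the counts were 10 with all 14 libraries, 5 with these but replicate 1, 71 with DESeq2, 64 with DESeq2 without replicate 1 and 16 with no filter, and leaving out 1 library gave 1 to 3, with 3 without Smad4 KO water replicate 3 and 3 without Smad4 KO DSS replicate 1. The prefix block could not be fitted there. For the difference of responses (1 gene), DESeq2 gave 8, DESeq2 without replicate 1 gave 26, no filter 2 and the fit without the 3 mitochondria-rich libraries 30, and leaving out 1 library gave 1 to 5, with 5 without Smad4 KO water replicate 4 and 2 without replicate 2.

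Replicate numbers are shared between groups, but the labels tie no number to an animal or day, and deviations of same-numbered libraries correlated at -0.12 to 0.45, over 0.1 in 1 pair (water replicates 4, which also share the prefix MP). With the replicate block, 1 member (Skil, log2 1.05, adjusted p = 0.0404 in edgeR) and 473 genes were called on water, 57 genes after DSS, 54 for DSS in WT and 15 for DSS in Smad4 KO. With the block and without replicate 1 these were 28 genes on water and 4 for DSS in Smad4 KO, and the Skil call on water was lost (log2 1.22, adjusted p = 0.0549 in edgeR). Under the replicate block Tgfbr3 turned to -0.17 for DSS in WT, and with replicate 1 also left out it turned to 0.14 on water and Tgfb1 to 0.069 for DSS in Smad4 KO.

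Signs turned for members near 0 or with few counts. With the prefix as a block, Tgfb1 was at 0.31 after DSS and 0.088 on water, Ski at -0.042 for DSS in WT, and Tgfbr3 at 0.46 after DSS, 5.47 on water, -1.31 for DSS in WT and -5.10 for the difference of responses. With prefix D alone, Tgfb1 was at 0.31 and Tgfbr3 at 0.46 after DSS, and Tgfbr3 at -1.32 and Ski at -0.041 for DSS in WT. Without the 3 mitochondria-rich libraries, Tgfbr3 was at -0.65 and Ski at -0.00233 for DSS in WT. Leaving out 1 library moved these log2 values across 0. After DSS they ran from -0.19 to 0.31 for Tgfb1, -0.079 to 0.24 for Tgfbr2 and -0.53 to 0.46 for Tgfbr3. On water they ran from -0.18 to 0.039 for Tgfb1, -1.26 to 0.12 for Tgfbr3 and -0.10 to 0.19 for Smurf1. For DSS they ran from -0.075 to 0.11 for Tgfbr1 and -0.54 to 0.59 for Tgfbr3 in WT, and from -0.0098 to 1.21 for Tgfbr3 in Smad4 KO. For the difference of responses they ran from -0.12 to 0.38 for Tgfb1, -0.24 to 1.09 for Tgfbr3, -0.28 to 0.0092 for Smurf1 and -0.072 to 0.16 for Smurf2.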
